A study of Mus musculus with 2 samples.

Results

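The adrenomedullin system was followed through 5 genes, taken by symbol from the 27999 genes of the deposited table. They were the peptide gene Adm, the receptor gene Calcrl and the receptor activity-modifying protein genes Ramp1, Ramp2 and Ramp3, each of which matched 1 row. They were measured in 2 droplet single-cell RNA libraries of mouse bone marrow, 1 for each labelled population, so no group had a replicate. The LepR_tdT library came from tdTomato-positive marrow cells and the EC library from marrow endothelial cells. Both came from C57Bl/6JCrl mice aged 3 to 4 months with the genotype LepR-Cre;LSL-tdTomato, in which Cre made under leptin receptor control switches on the red protein tdTomato in cells that have expressed the receptor and in their descendants. The number of mice per library was not given in the sources used here. The protocol gives tamoxifen and the stains by sample numbers that overlap, so neither could be tied to these libraries.

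Adrenomedullin is a secreted peptide that dilates vessels and tightens the endothelial barrier. It signals through CALCRL, a receptor of the class B family that couples to Gs and cyclic AMP and reaches the cell surface only with a RAMP partner. With RAMP2 or RAMP3, CALCRL binds adrenomedullin. With RAMP1 it forms the receptor of calcitonin gene-related peptide (CGRP), a peptide released by sensory nerves. In mice, Adm, Calcrl and Ramp2 are each needed for blood and lymphatic vessels to form in the embryo.

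Positions are on GRCm38. Adm lies at chr7:110627661-110629820 on the plus strand and overlaps the antisense gene Gm28863, which held 0 UMIs (unique molecular identifiers, each a counted molecule). Calcrl lies at chr2:84330626-84425411 on the minus strand and overlaps no annotated gene. Ramp1 lies at chr1:91179822-91225196 on the plus strand, also without an overlapping gene. Ramp2 at chr11:101246028-101259546, plus strand, overlaps Vps25 on the same strand, which held 269 UMIs, so reads in the shared stretch could go to either gene. Ramp3 at chr11:6658521-6677475, plus strand, overlaps the pseudogene Gm11978 on the other strand. All 5 are protein-coding.

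The 250 bases before the RefSeq start of transcription (GRCm38.p6) are shown because the genes marked different cells. Windows were available here for 4 genes, without Ramp2. Each runs 5′ to 3′ on the gene's own strand. Capitals mark a GC box core (GGGCGG, or CCGCCC on the other strand) or an ETS-type core (CAGGAAG or its complement), both searched on both strands. The windows are chr2:84425267-84425516 for Calcrl, chr7:110627407-110627656 for Adm, chr11:6658283-6658532 for Ramp3 and chr1:91179572-91179821 for Ramp1. The starts differ from the GENCODE gene bounds above, so that much of the Calcrl window, with both of its matches, and the end of the Ramp3 window lie inside the bounds given for those genes.
Calcrl: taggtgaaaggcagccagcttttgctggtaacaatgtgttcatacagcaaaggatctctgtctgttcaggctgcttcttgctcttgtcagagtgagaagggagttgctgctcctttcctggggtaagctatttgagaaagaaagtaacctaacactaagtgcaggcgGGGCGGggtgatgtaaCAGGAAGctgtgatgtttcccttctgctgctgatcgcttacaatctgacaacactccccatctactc
Adm: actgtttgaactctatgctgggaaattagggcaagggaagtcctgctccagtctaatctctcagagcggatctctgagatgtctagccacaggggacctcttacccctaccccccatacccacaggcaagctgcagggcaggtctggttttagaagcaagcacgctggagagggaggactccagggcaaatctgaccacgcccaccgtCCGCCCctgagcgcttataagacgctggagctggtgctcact
Ramp3: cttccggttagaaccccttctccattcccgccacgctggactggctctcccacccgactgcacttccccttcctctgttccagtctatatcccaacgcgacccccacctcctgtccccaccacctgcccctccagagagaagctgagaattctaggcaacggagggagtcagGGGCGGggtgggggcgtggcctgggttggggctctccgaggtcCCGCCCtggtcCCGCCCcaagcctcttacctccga
Ramp1: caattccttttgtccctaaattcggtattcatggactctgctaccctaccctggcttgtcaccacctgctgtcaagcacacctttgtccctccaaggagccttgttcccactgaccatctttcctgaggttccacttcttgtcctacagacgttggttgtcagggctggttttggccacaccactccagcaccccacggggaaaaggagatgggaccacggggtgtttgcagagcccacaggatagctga
The string CAGGAAG is a form of the motif of ETS factors, which are active in endothelial cells among many others. It stood once in the Calcrl window and in none of the other 3. Among 32851 promoter windows of the same length it stood in 10.8%. Other forms of the ETS motif were not searched in any window. The GC box core stood 3 times in the Ramp3 window, once each in those of Calcrl and Adm and not in that of Ramp1, against 32.7% of all windows. Neither ACGTG, a form of the hypoxia-element core (16.6% of windows), nor the AP-1-type string TGANTCA (6.75% of windows) stood in any of the 4. Other forms, such as GCGTG for the hypoxia element, were not searched, so their absence is not shown. These are letter matches in 1 short window and are no measure of binding.

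The LepR_tdT library held 4250 cells with a median of 4347 UMIs, and the EC library 4536 cells with a median of 3084.5 UMIs. Cells were put in classes by clustering without the 5 genes and the pathway genes, and classes were named from marker genes. The LepR_tdT library held 2936 stromal-like, 266 osteolineage-like, 60 endothelial-like and 17 pericyte-like cells. It also held 268 cells of an unnamed cluster led by Cxcl5 and Kit that carried 7 of 10 stromal markers, called Kit-led here. The EC library held 3454 sinusoidal-like cells in 2 clusters and 234 arterial-like cells. One sinusoidal-like cluster, of 1438 cells, was led by early response genes such as Nr4a2 and Atf3 and is called stress-led. Of 6 lymphatic markers 4 were at 0 in the endothelial-like cells of the EC library. Granulocyte-like cells numbered 41 in the EC library and 16 in the LepR_tdT library. Barcodes of 42 cells in each library were the same sequence. Leaving those cells out moved no ratio out of its counting interval or across 2-fold in the 5 comparisons plotted further on. The comparisons of the Kit-led and of the granulocyte-like cells had no alternatives run. Barcodes outside the cell table with 1 to 100 UMIs were taken as free RNA, which droplets with cells also take up, and its level is given beside each of the 5 genes. Levels are UMIs of a class per 1000000 UMIs of that class (CPM). Ranges in brackets are 95% intervals of counting error only and do not cover variation between mice or preparations.

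The receptor gene Calcrl followed the endothelial cells. Its level was 134 CPM (128 to 141, 1726 UMIs) in the endothelial-like cells of the EC library and 96.1 CPM (57.9 to 150.1, 19 UMIs) in the 60 endothelial-like cells of the LepR_tdT library. The 2 sinusoidal-like clusters stood at 139.9 CPM and 130.2 CPM and arterial-like cells at 119 CPM (96.7 to 145), with overlapping intervals. In stromal-like cells it was 1.64 CPM from 23 UMIs, and 1 UMI was found in all osteolineage-like cells. Stromal-like cells held a Calcrl UMI in 0.783% of cells (median 4620.5 UMIs), against 3 of 16 granulocyte-like cells of the same library (median 11247.5 UMIs), and free RNA there stood at 10.8 CPM. The part of free RNA in the stromal-like UMIs was not tested. In the EC library free RNA stood at 95.6 CPM, and granulocyte-like and erythroid-like cells at 15.1 CPM and 19.6 CPM.

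Ramp2, the partner for the first adrenomedullin receptor, was highest, among classes over 50 cells, in arterial-like cells at 921 CPM (857 to 989, 758 UMIs). The sinusoidal-like cluster without the stress lead had 479.5 CPM (463 to 497) and the stress-led one 411 CPM (395 to 429), intervals that do not overlap. The few endothelial-like cells of the LepR_tdT library had 389 CPM (307 to 487), which overlaps both. The shallow unnamed clusters of the EC library had 429 CPM (339 cells) and 182 CPM (376 cells). In the LepR_tdT library Kit-led cells stood at 88.8 CPM (74.8 to 105) and stromal-like cells at 73.4 CPM (69.0 to 78.1, 1028 UMIs), whose intervals overlap, and osteolineage-like cells at 43.1 CPM (32.9 to 55.5). Granulocyte-like cells of the LepR_tdT library held 1 UMI (4.59 CPM) and those of the EC library 31 UMIs (67.0 CPM). Free RNA held 525 CPM in the EC and 205 CPM in the LepR_tdT library.

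Ramp3, the partner for the second adrenomedullin receptor, lay mostly in arterial-like cells. The 234 arterial-like cells, 5.16% of the EC library, held 280 of the library's 375 Ramp3 UMIs, or 74.7%. Their level was 340.3 CPM (302 to 383), against 7.57 CPM (6.09 to 9.29) in sinusoidal-like cells. The LepR_tdT library held 2 Ramp3 UMIs in its 4250 cells, both in the same stromal-like cell. Osteolineage-like, Kit-led and pericyte-like cells held 0. Free RNA stood at 53.6 CPM in the EC and 31.1 CPM in the LepR_tdT library.

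Ramp1, the CGRP receptor partner, was nearly missing from endothelial-like cells, with 2 UMIs in the 3688 cells of the EC library. Its levels were 417 CPM (336 to 512) and 208 CPM (168 to 253) in granulocyte-like cells of the LepR_tdT and EC libraries, 157 CPM (78.2 to 280.4, 11 UMIs) in pericyte-like and 75.4 CPM (61.7 to 91.3, 105 UMIs) in osteolineage-like cells. Stromal-like cells had 2.14 CPM (1.45 to 3.06). Free RNA stood at 22.1 CPM in the LepR_tdT and 15.6 CPM in the EC library.

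The ligand gene Adm was found in stromal-like, osteolineage-like and endothelial-like cells alike, at low levels. Kit-led cells had 42.2 CPM (32.7 to 53.6), stromal-like cells 32.9 CPM (29.9 to 36.0), stress-led sinusoidal-like cells 26.9 CPM (22.8 to 31.6) and osteolineage-like cells 24.4 CPM (16.9 to 34.1), each interval overlapping the next. The other sinusoidal-like cluster had 10.1 CPM (7.81 to 12.9) and arterial-like cells 7.29 CPM (2.68 to 15.9, 6 UMIs). In the LepR_tdT library 460 of 574 Adm UMIs, 80.1%, lay in stromal-like cells, which made up 69.1% of cells. Free RNA held 32.0 CPM in that library and 25.8 CPM in the EC library. Granulocyte-like and erythroid-like cells of the EC library together held 1 UMI, and those of the LepR_tdT library none. A UMI was found in 10.9% of stromal-like cells (median 4620.5 UMIs) and in 2.44% of granulocyte-like cells of the EC library (median 10519 UMIs).

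**Figure D1:**
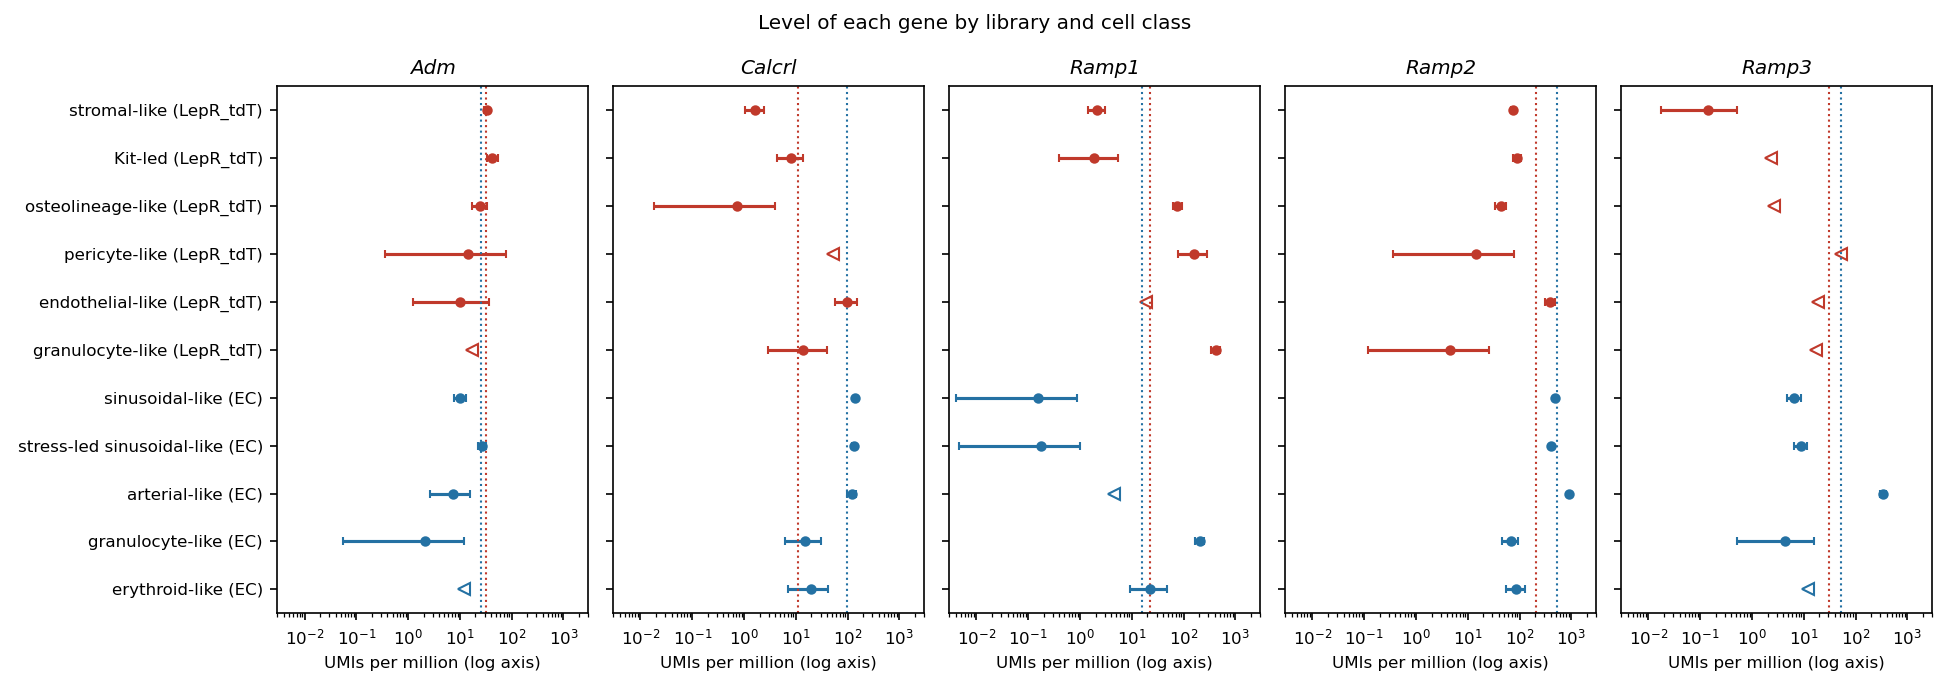
Level of each gene in UMIs per 1000000 (log axis) by cell class, with red for the LepR_tdT and blue for the EC library. Points carry 95% Poisson intervals, open triangles mark the upper limit where a class held 0 UMIs, and dotted lines mark free RNA of the library of that colour. Calcrl and Ramp2 lie to the right in endothelial classes, Ramp3 at 340.3 in arterial-like cells of the EC library, and Ramp1 in granulocyte-like, pericyte-like and osteolineage-like cells.

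The contrast between the labelled populations was taken as stromal-like cells of the LepR_tdT library against endothelial-like cells of the EC library, so cell type and library cannot be told apart here. A gene with 20 UMIs or more over both classes was called when its levels were 2-fold or more apart and the interval of the ratio did not hold 0. With 1 library a group there is no test. Of the 5 genes, 4 passed, a share to be read against 38.8% of the 12854 genes measured. Calcrl was 81.7-fold lower in stromal-like cells (log2 ratio -6.35, -7.01 to -5.76). Ramp2 was 6.51-fold lower (log2 ratio -2.70, -2.80 to -2.61). Ramp3 was 202-fold lower (log2 ratio -7.66, -10.71 to -5.80), on 2 stromal UMIs. Lower genes made up 17.6% of all. With each cell thinned to 1000 UMIs the Calcrl ratio was -8.60, on 1 stromal UMI.

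Ramp1 was higher in stromal-like cells (log2 ratio 3.78, 1.80 to 6.89), but its stromal level was below free RNA. Higher genes made up 21.2% of all. With cells chosen by a marker gate in place of clusters the Ramp1 ratio was 0.01. Adm did not pass, at 32.9 against 17.3 CPM (1.90-fold, log2 ratio 0.93, 0.69 to 1.17). It passed with clusters at resolution 1.0 (1.24), with free RNA subtracted (1.10) and without the stress-led endothelial cluster (1.75). At resolution 1.0 an unnamed cluster of 1178 cells with 10 of 10 stromal markers was not counted as stromal-like. It had 23.5 CPM of Adm, against 37.4 and 49.7 CPM in the stromal-like clusters of 1267 and 416 cells.

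The 60 endothelial-like cells within the LepR_tdT library allowed the same contrast inside 1 preparation. Calcrl was higher in them than in the stromal-like cells around them (log2 ratio 5.87, 4.91 to 6.81), and so was Ramp2 (2.41, 2.05 to 2.74), where 8.99% of 11686 genes were higher and 10.1% lower. For Adm the ratio was -1.70 (-4.75 to 0.16) on 2 endothelial UMIs, which is not distinguishable from no difference at this depth. Ramp1 and Ramp3 had 0 UMIs in these 60 cells, which allows up to 18.7 CPM at the 95% limit. These cells also carried 2565 CPM of stromal markers, against 50083 CPM in stromal-like cells.

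**Figure D2:**
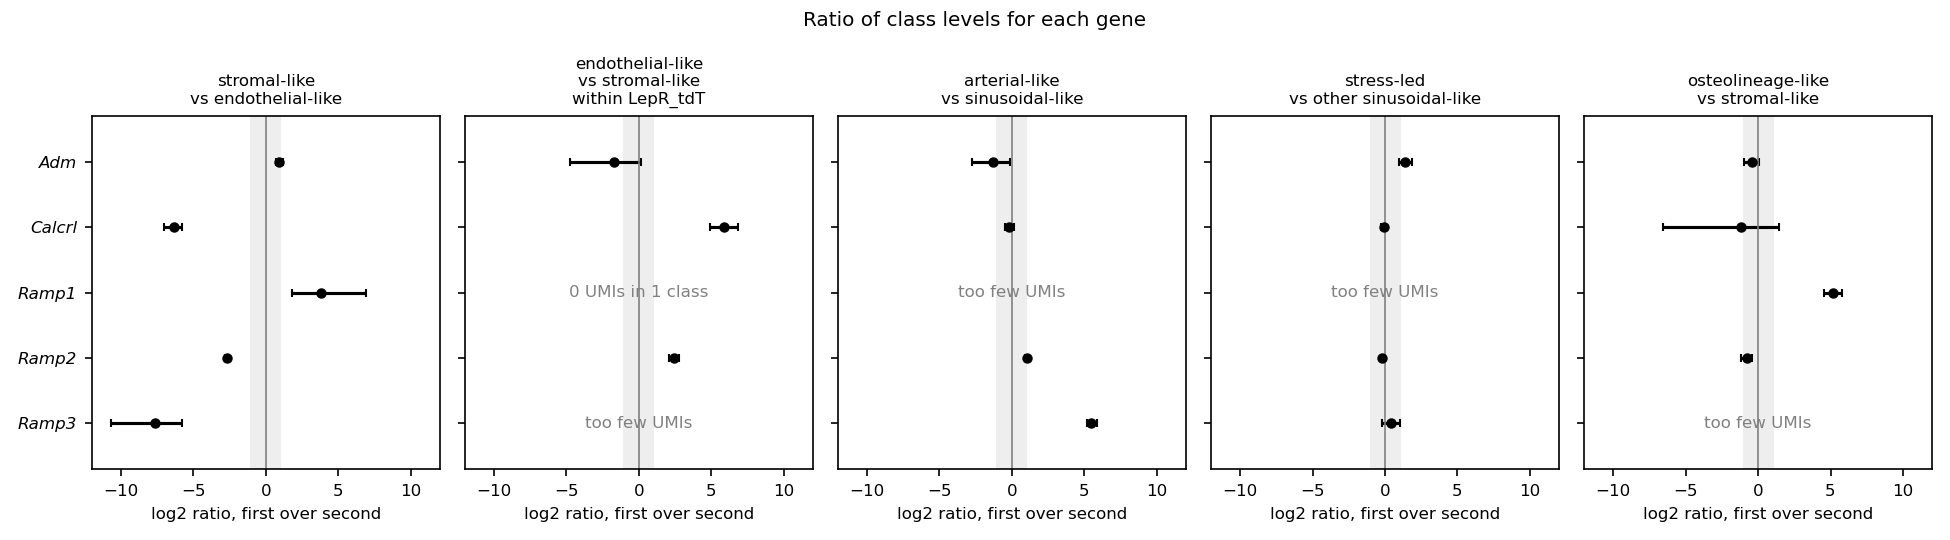
Log2 ratio of the first class over the second for each gene, with conditional 95% intervals of counting error, in 5 comparisons. Grey bands mark ratios under 2-fold. Calcrl and Ramp2 lie left of 0 in the first panel and right of 0 in the second, where the classes are swapped, and Ramp3 at 5.49 stands apart in the arterial-like comparison.

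Within the EC library the receptor gene was level across vessel types while its partners were not. In arterial-like cells Calcrl stood at 119 CPM, against 135 CPM in the sinusoidal-like ones (log2 ratio -0.18, -0.49 to 0.11), an interval that excludes a 2-fold difference. Ramp3 was 45.0-fold higher in arterial-like cells (log2 ratio 5.49, 5.15 to 5.85). Ramp2 was 2.06-fold higher (log2 ratio 1.04, 0.93 to 1.15). Ramp3 in sinusoidal-like cells stood at 7.57 CPM, below the 53.6 CPM of free RNA. Subtracting free RNA left under 1 Ramp3 UMI there, so that ratio then has no value. Among 11103 genes 7.20% were higher in arterial-like cells and 4.09% lower. Other scalings shifted all ratios by -0.15 (TMM) and -0.14 (median ratio), and Ramp2 was then at 0.89 and 0.90, under 2-fold. At resolution 1.0 it was at 0.98. Of the arterial-like cells 148 of 234 held a UMI of a stromal marker. A per-cell marker gate bars these and also asks for endothelial and arterial markers in each cell. It kept 44 arterial-like cells among its 346 cells, and the rest of the 346 lie outside that class. Under that gate the Ramp3 ratio was 1.65, the Ramp2 ratio 0.28 and the Calcrl ratio 0.19. With cells thinned to 1000 UMIs the Ramp3 ratio was 4.82. Adm was lower in arterial-like cells (log2 ratio -1.30, -2.76 to -0.15) on 6 UMIs, was at -0.97 after thinning, and turned to 1.38 under the gate.

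The marker set shows how well the class stands out. The 12 arterial markers summed to 3255 CPM in arterial-like cells, with none of them at 0, and to 657 CPM in sinusoidal-like cells. Several of these markers are also stromal genes, and the list summed to 5313 CPM in stromal-like cells. Markers of pericytes (137 CPM, 5 of 8 at 0), fibroblasts (57.1 CPM, 4 of 7 at 0) and lymphatic vessels (30.4 CPM, 4 of 6 at 0) were low in arterial-like cells, and the stromal markers stood at 892 CPM with 4 of 10 at 0. Markers of blood progenitors, a list that arterial cells partly share through Cd34, stood at 453 CPM with 3 of 6 at 0, against 18.0 CPM in sinusoidal-like cells. Their part in the Ramp3 result was not tested. Clustered at resolution 1.0, the arterial-like cluster of 293 cells had 270.5 CPM of Ramp3 and 870 CPM of Ramp2.

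Because CALCRL needs a RAMP in the same cell, cells were counted in which both transcripts were caught. A Calcrl UMI was present in 34.9% of sinusoidal-like cells and in 71 of 234 arterial-like cells (30.3%, 24.5 to 36.7). Calcrl with Ramp2 was found in 26.3% (24.9 to 27.8) and 26.1% (20.6 to 32.2) of these classes. Calcrl with Ramp3 was found in 18.4% (13.6 to 23.9) of arterial-like cells, 43 of 234, against 0.898% (0.611 to 1.27) of sinusoidal-like cells. All of Calcrl, Ramp2 and Ramp3 met in 37 arterial-like cells, 15.8%, and in 27 of 3454 sinusoidal-like cells. Of the 71 arterial-like cells with Calcrl, 67 also held a Ramp UMI (94.4%, 86.2 to 98.4), against 913 of 1204 sinusoidal-like cells (75.8%, 73.3 to 78.2).

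Depth sets these shares. With each cell thinned to 1000 UMIs, which left out 53 sinusoidal-like and 22 arterial-like cells, a Ramp3 UMI was left in 25.5% (19.8 to 31.9) of the arterial-like class and in 37 of 3401 sinusoidal-like cells (1.09%). Ramp2 then stood at 54.2% (47.3 to 61.1) and 34.4% (32.8 to 36.1), and Calcrl at 11.3% (7.39 to 16.4) and 12.3% (11.2 to 13.4). Both Calcrl and Ramp3 were left in 5 of 212 arterial-like cells, against 3 sinusoidal-like cells. At equal depth, Ramp2 was about as frequent in cells with Calcrl as in those without. In thinned sinusoidal-like cells Ramp2 was found in 35.2% (30.6 to 40.0) of cells with Calcrl and 34.3% (32.6 to 36.1) of cells without it. In full-depth cells these were 75.5% and 66.7%. For comparison, 4 of 41 granulocyte-like cells of the EC library (median 10519 UMIs) held Calcrl and Ramp2 together at full depth, and none when thinned.

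In stromal-like cells Ramp2 came without Calcrl. Of 2936 cells 795 (27.1%) held Ramp2, 23 held Calcrl and 6 held both (0.204%, 0.0750 to 0.444). After thinning, 235 of 2921 cells held Ramp2 (8.05%), 1 held Calcrl and none held both, but at this depth most transcripts are lost. Adm and Calcrl met in 4 stromal-like cells.

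**Figure D3:**
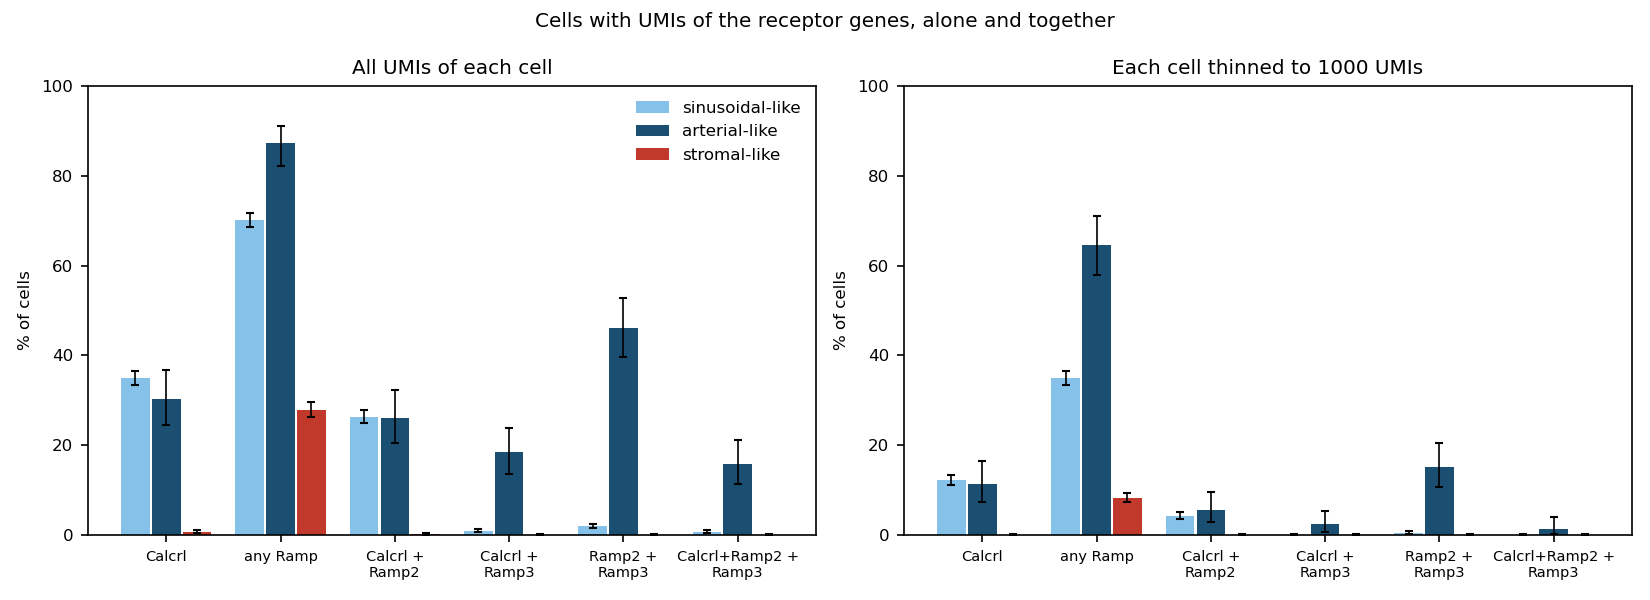
Percentage of sinusoidal-like, arterial-like and stromal-like cells with UMIs of the genes named on the axis, at full depth (left) and with each cell thinned to 1000 UMIs (right). Bars are shares and lines exact 95% binomial intervals. Calcrl with Ramp2 is alike in both endothelial classes (26.3% and 26.1%), while Calcrl with Ramp3 is at 18.4% in the arterial-like class and 0.898% in the sinusoidal-like one.

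Endothelial markers are given beside the Ramp2 signal of stromal-like cells. The 12 endothelial markers summed to 77.3 CPM (1082 UMIs) in stromal-like cells, 9378 CPM in the endothelial-like cells of that library and 1361 CPM in its free RNA. Ramp2 counted 687 UMIs to 4551 endothelial marker UMIs in free RNA, and 1028 to 1082 in stromal-like cells. The 2218 stromal-like cells without any endothelial marker UMI had 73.0 CPM of Ramp2 (67.8 to 78.4), and the 718 cells with one had 74.7 CPM (66.3 to 83.9). These intervals overlap. At resolution 1.0, an unnamed cluster of 1178 cells led by Cldn11 and Kcne4 had 86.0 CPM (78.6 to 94.0) of Ramp2, against 67.3 CPM (60.9 to 74.2) in the largest stromal-like cluster and 57.1 CPM (47.1 to 68.5) in the stress-led one.

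RAMPs also pair with other receptors, most of them of class B, and these were counted from a list of 11. Of these, 3 were measured in stromal-like against endothelial-like cells and all 3 were higher in stromal-like cells, where 21.2% of all genes were. Pth1r, the receptor for parathyroid hormone, stood at 156 CPM against 0.700 CPM (log2 ratio 7.80, 6.87 to 8.93), with 124 CPM in the free RNA of the LepR_tdT library and 2 UMIs (9.17 CPM) in its granulocyte-like cells. Vipr2, a receptor for vasoactive intestinal peptide, held 140 UMIs against 0 (at least 42.8-fold, with 3 UMIs over the class as floor). Gper1, an oestrogen-responsive receptor outside class B, held 38 against 0 (at least 11.6-fold). In osteolineage-like cells Pth1r stood at 659 CPM (617 to 703). Pth1r was found in 52.7% (49.2 to 56.2) of stromal-like cells with Ramp2 and 46.9% (44.8 to 49.0) of those without, at median depths of 4999 and 4505 UMIs. When thinned, the shares were 11.1% (7.36 to 15.8) and 14.1% (12.9 to 15.5).

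Ramp1 in the LepR_tdT library was found in a few cells. Osteolineage-like cells, 6.26% of the library, held 105 of its 252 Ramp1 UMIs, and the 16 granulocyte-like cells held 91. Against stromal-like cells, Ramp1 was 35.2-fold higher in osteolineage-like cells (log2 ratio 5.14, 4.54 to 5.77), where 4.92% of 11763 genes were higher, 5.60% lower and 10.5% either. Of osteolineage-like cells 18.8% held a UMI, with at most 6 in 1 cell, and 5.36% (2.96 to 8.84) did after thinning, against 0.274% (0.118 to 0.539) of stromal-like cells. Under the marker gate, which takes in 1988 cells, the ratio was 2.28, and with free RNA subtracted it was 6.78. Osteolineage-like cells also carried 2884 CPM of erythroid markers, against 189 CPM in stromal-like cells, and 55.3 CPM of granulocyte markers, against 61.9 CPM. The 144 osteolineage-like cells without any erythroid or granulocyte marker UMI had 56.6 CPM of Ramp1 (40.1 to 77.7, 38 UMIs), against 2.24 CPM (1.26 to 3.70) in such stromal-like cells. The 122 osteolineage-like cells with such a UMI had 92.9 CPM and held 67 of the 105 UMIs. In osteolineage-like cells Calcrl held 1 UMI and no cell held both.

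Of the other genes none was called here. Ramp2 stood at 43.1 against 73.4 CPM (log2 ratio -0.77, -1.17 to -0.39) and Adm at 24.4 against 32.9 CPM (log2 ratio -0.43, -0.98 to 0.08), neither past 2-fold. Ramp2 was past it with free RNA subtracted (-1.02) and after thinning (-1.03). Without cells holding a blood marker UMI the Adm ratio was -1.31. For Calcrl, at 1 against 23 UMIs, the ratio was -1.19 (-6.56 to 1.43) and 3.48 after thinning, on 1 UMI in each class.

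Granulocyte-like cells, which came along in both sorts, had the highest Ramp1 level of any class. The interval of the EC level, 208 CPM (168 to 253), overlapped that of pericyte-like cells, 157 CPM (78.2 to 280.4, 11 UMIs). A shallow unnamed LepR_tdT cluster of 25 cells, at 183 CPM (22.1 to 660.0, 2 UMIs), overlapped both granulocyte-like levels. With both libraries pooled, the granulocyte-like class carried 9 of 9 granulocyte markers. It also carried 5 of 7 B cell, 4 of 7 macrophage, 4 of 6 blood progenitor and 3 of 7 fibroblast markers. Their part in the Ramp1 level was not tested. Against endothelial-like cells of the EC library the log2 ratio was 10.38 (8.49 to 13.45), where 11.5% of 11411 genes were higher. This comparison was added after the values had been seen. Cells with more UMIs of the early granule genes Mpo and Elane than of the late ones Ngp, Camp, Ltf and Lcn2 had 351 CPM (279 to 436, 14 cells) in the EC and 523 CPM (411 to 657, 7 cells) in the LepR_tdT library. The remaining cells had 64.7 CPM (36.2 to 107, 27 cells) and 222 CPM (129 to 355, 9 cells). Ramp1 was found in 12 of the 14 and 7 of the 7 early cells. The early cells were also deeper, with median depths of 14873 and 19865 UMIs against 5205 and 6779. Calcrl held 0 UMIs in the 14 early cells of the EC library and 1 in the 7 of the LepR_tdT library. In pericyte-like cells Ramp1 was found in 52.9% of 17 cells and Calcrl in none.

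The ligand gene was the 1 member past 2-fold between the sinusoidal-like clusters. In the EC library Adm was 2.66-fold higher in the stress-led than in the other sinusoidal-like cluster (log2 ratio 1.41, 0.98 to 1.85), where 1.93% of 10962 genes were higher, 0.666% lower and 2.60% either. With free RNA subtracted the ratio was 2.01. Calcrl (-0.10), Ramp2 (-0.22, -0.30 to -0.14) and Ramp3 (0.42) were under 2-fold, of which Ramp2 was lower beyond counting error. The 12 immediate early and heat shock genes of a list were all higher in the stress-led cluster, but they had helped to form it and this is no result. Of 12 measured hypoxia response genes, to which Adm is often counted, 0 were higher and 1, Egln3, was lower.

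Cells were also sorted by the share of their UMIs in each list and cut into 3 equal groups. Adm went from 8.75 CPM (5.94 to 12.4) through 15.0 CPM (11.5 to 19.3) to 28.2 CPM (23.4 to 33.6) from the lowest to the highest group of sinusoidal-like cells by the early response list, whose sum went from 1063 to 15001 CPM. Median depth went from 2997 to 3708 UMIs over these groups. In stromal-like cells it went from 27.3 CPM (22.8 to 32.4) through 33.8 CPM to 37.6 CPM (32.2 to 43.7), with intervals of the outer groups just overlapping. By the hypoxia list it went from 15.9 CPM (12.2 to 20.4) to 20.1 CPM (15.9 to 25.1) in sinusoidal-like cells and from 31.6 to 33.6 CPM in stromal-like cells, with overlapping intervals. Ramp2 of sinusoidal-like cells went from 480.2 CPM (458 to 504) to 403 CPM (385 to 423) over the early response groups. At resolution 1.0 the stress-led stromal-like cluster of 416 cells had the highest Adm of the clusters described here, 49.7 CPM (40.4 to 60.4). Of the Adm UMIs of the EC library 65.7% lay in the stress-led cluster, which held 31.7% of its cells.

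**Figure D4:**
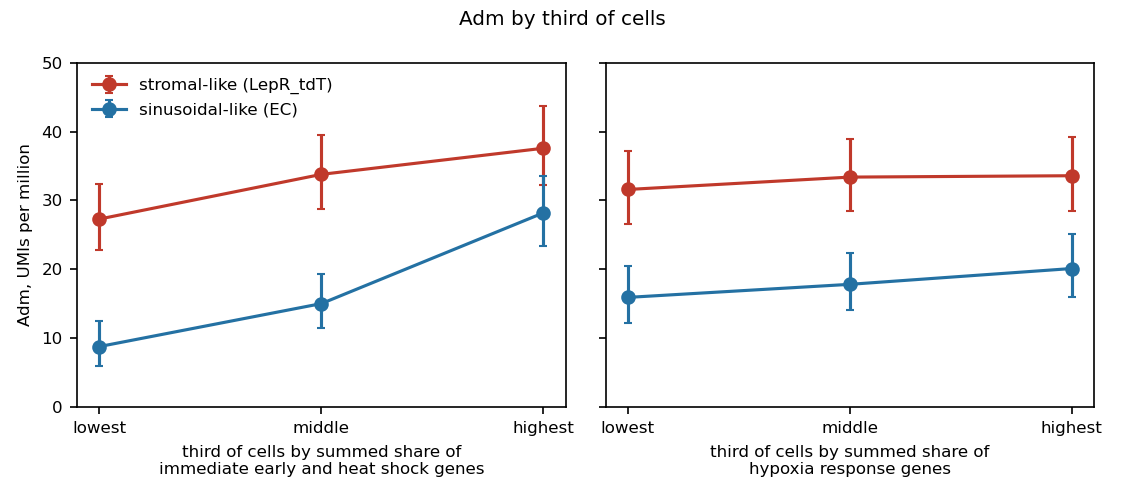
Adm in UMIs per 1000000 in 3 equal groups of stromal-like and sinusoidal-like cells sorted by their share of immediate early and heat shock genes (left) or hypoxia response genes (right). Points are class sums with 95% Poisson intervals. Adm goes from 8.75 to 28.2 over the left groups of sinusoidal-like cells and stays between 15.9 and 20.1 over the right ones.

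The other ligands that share these receptors were hardly present. In both populations Adm2, Calcb and Iapp held 0 UMIs, and Calca, the CGRP gene, held 1 UMI and 3 UMIs, the 3 in arterial-like cells. Of other receptors, Calcr, which makes amylin receptors with RAMPs, held 0 UMIs. Ackr3, a scavenger of adrenomedullin, held 0 and 7. Gpr182, an atypical receptor of endothelium, stood at 424 CPM (5445 UMIs) in endothelial-like cells, with 331 CPM in the free RNA of the EC library, and held 98 UMIs in the stromal-like ones (log2 ratio -5.92, -6.22 to -5.63). In arterial-like cells it was lower than in sinusoidal-like cells, at 198 against 439 CPM (log2 ratio -1.15, -1.38 to -0.92), where Ramp3 was higher.

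Of 6 measured genes that make and clear the peptide, 3 were higher in stromal-like cells and 1 was lower, against 21.2% and 17.6% of all genes, with a median log2 ratio of 0.79 against 0.10 over all genes. Pam, which amidates adrenomedullin into its active form, stood at 255 against 105 CPM (1.28). Mme, the membrane peptidase neprilysin that cleaves it, held 2918 against 2 UMIs (log2 ratio 10.39). Ece1, an endothelin-converting peptidase, was lower in stromal-like cells, at 52.8 against 219.8 CPM (-2.06).

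The lists that follow stand against the same 21.2% of all genes higher and 17.6% lower in stromal-like cells. Of 16 measured downstream Gs and cyclic AMP genes 6 were higher and 1 was lower in stromal-like cells (median 0.19). The adenylyl cyclase Adcy2 stood at 77.4 against 0.156 CPM (log2 ratio 8.96), the regulatory subunit Prkar2b at 28.2 against 1.09 CPM (4.70) and Adcy5 at 3.00 against 0.156 CPM (4.27). Adcy4 was the one higher in endothelial-like cells, at 101 against 7.22 CPM (-3.80). Of 9 phosphodiesterases, which break down cyclic nucleotides, 2 were higher and 4 lower in stromal-like cells (median -0.12). Among them Pde2a stood at 38.8 against 447 CPM (-3.53), Pde4b at 7 against 109 UMIs (-4.08), and Pde3a at 57 UMIs against 1 UMI (5.71). Of 7 genes for desensitisation and recycling 2 were higher and 3 lower in stromal-like cells (median -0.91). Slc9a3r1, which encodes the scaffold NHERF1 known to bind RAMP3, stood at 93.6 against 4.82 CPM (4.28), and the arrestin Arrb1 at 13.3 against 151 CPM (-3.51). Of 12 immediate early and heat shock genes 1 was higher and 4 were lower (median -0.35), and of 13 hypoxia response genes 2 were higher and 6 lower (median -0.94).

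The same lists were read between vessel types, beside the 11.3% of all genes called there. In arterial-like cells 3 of 13 measured Gs and cyclic AMP genes were higher and none was lower (median 0.25 against 0.15 over all genes). These were Gnas, the Gs alpha subunit, at 1923 against 783 CPM (log2 ratio 1.30), the cyclic AMP-responsive exchange factor Rapgef4 at 101 against 23.7 CPM (2.09) and the kinase subunit Prkaca at 57.1 against 26.2 CPM (1.13). Of 7 phosphodiesterases 3 were higher, which were Pde4d (1.64), Pde4b (1.53) and Pde8a (1.19). Of 7 desensitisation and recycling genes 1 was higher, Slc9a3r1, at 15.8 against 4.07 CPM (1.96, 0.95 to 2.86). None of 4 measured peptide processing genes and none of 12 immediate early and heat shock genes was called, and of 13 hypoxia response genes 2 were higher and 1 lower.

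The Kit-led cluster, which shares 7 stromal markers with its neighbours, was compared with stromal-like cells. Calcrl held 13 UMIs in its 268 cells (8.19 CPM, 4.36 to 14.0), against 23 UMIs in the stromal-like cells (log2 ratio 2.32, 1.21 to 3.36), where 3.08% of 11747 genes were higher, 3.75% lower and 6.84% either. These were single UMIs in 13 cells (4.85%, 2.61 to 8.15), of which 2 were left after thinning, and free RNA stood at 10.8 CPM. Endothelial markers stood at 75.6 CPM in the cluster, with 4 of 12 at 0, and at 77.3 CPM in stromal-like cells, and their part in the result was not tested. Adm (0.36, -0.03 to 0.73) and Ramp2 (0.27, 0.01 to 0.53) were under 2-fold. Of 12 immediate early and heat shock genes 8 were higher in the cluster, where they had entered the clustering.

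Across 12 library-by-class profiles of at least 30 cells, genes were ranked by Pearson correlation of log2(CPM + 1) with each of the 5, over 11144 genes. The profiles share libraries and differ in depth, so the values are a description. Closest to Calcrl were 5430416O09Rik (0.993), Csgalnact1 (0.987), the endothelial coreceptor Eng (0.987), Sdpr (0.986) and the thrombin receptor F2r (0.982). Closest to Ramp2 were the vitamin B12 carrier Tcn2 (0.966), Hyal2 (0.963), Rab11a (0.962), Endou and Cda. Closest to Ramp3 was Filip1 (0.897), to Ramp1 B4galnt1 (0.915) and to Adm B2m (0.958). Among the 5 genes, Calcrl correlated with Ramp2 at 0.899 and with Ramp3 at 0.602, and Ramp1 with Ramp2 at -0.683.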

How the data were processed

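Droplet single-cell libraries of 2 labelled populations were analysed, 1 library each. The deposited matrix holds raw UMI counts, and the authors' cell table gives library, UMI and gene numbers, which matched recomputed counts for all cells. Cell Ranger 2.1.1, Seurat 2.3.4 and mm10 are named per the submitters' processing notes, with no roles. The 5 genes and all lists were chosen with earlier results of these data known. Cells were clustered on 1577 variable genes without the 5 genes, pathway lists, mitochondrial genes and tdTomato (30 components, 15 neighbours, Leiden resolution 0.5, best of 20 seeds; the early response genes stayed in). Classes needed 3 fixed markers at 1.5-fold. Clustering a mixed blood cluster again and leaving the 5 and pathway genes out of the leading genes were chosen after seeing clusters. Named genes were the 5, up to 4 measured per list by size of ratio, and the 5 closest by correlation; Adm2, Calcb, Iapp, Calca, Calcr, Ackr3 and list members in counts of 5 or fewer were named after their values were seen. Scrublet called 1 and 0 doublets and had not worked, so leaving out the 4% highest scores was added. Sums carry exact Poisson, ratios conditional binomial and shares Clopper-Pearson 95% intervals. The ratio method was tested on simulated data. Work used Python 3.11.15, scanpy 1.11.5, leidenalg 0.10.2 and edgeR 4.0.16 (TMM only). Positions are GENCODE M21 on GRCm38, where 27645 of 27999 identifiers were found. Promoters are RefSeq, with windows available here for 4 of the 5 genes. Values of 1 gene of the peptide processing and clearance list, which its counts and median include, are not reported here.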

Additional observations from a re-analysis of the deposited data

Results flagged for a closer look

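Free RNA, in barcodes outside the cell table, is not part of the comparisons, and several genes stood higher there than in the pooled cells of the same library. In the LepR_tdT library these were Calcrl (10.8 CPM), Ramp1 (22.1 CPM), Ramp2 (205 CPM) and Ramp3 (31.1 CPM). In the EC library these were Adm (25.8 CPM), Ramp1 (15.6 CPM), Ramp2 (525 CPM) and Ramp3 (53.6 CPM). Ramp3 in the LepR_tdT library is the most uneven, with 31.1 CPM outside cells and 0.110 CPM inside them.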

How the results depend on the processing

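No paired analysis was possible because each group had 1 library and no result came from a test. For 20 log2 ratios, 173 alternative values were computed, of which 169 kept their sign. Under the marker gate, arterial-like Adm (1.38) and Calcrl (0.19) did not, and osteolineage-like Adm came to 0.00. When thinned, osteolineage-like Calcrl (3.48) did not. Values outside the counting interval follow. For stromal-like against endothelial-like cells the marker gate gave 0.01 for Ramp1 and -2.60 for Ramp2. For arterial-like against sinusoidal-like it gave 1.38 for Adm and 0.19 for Calcrl, both changes of sign, 0.28 for Ramp2 and 1.65 for Ramp3. For osteolineage-like against stromal-like it gave 2.28 for Ramp1 and -0.08 for Ramp2. Within the LepR_tdT library it gave 3.50 for Ramp2, from 3 gated cells. Its gates hold other cells than the clusters. Stromal-like against endothelial-like, resolution 1.0 gave 1.24 for Adm and -2.88 for Ramp2, and leaving out the stress-led cluster 1.75 and -2.85. Subtracting free RNA (17.7% of EC and 6.63% of LepR_tdT UMIs, from blood-like cells) gave -7.16 for Calcrl and -2.86 for Ramp2 there, 1.22 for arterial-like Ramp2, 6.78 for osteolineage-like Ramp1 and 2.01 for stress-led Adm. Scaling gave 0.89 (TMM) and 0.90 (median ratio) for arterial-like Ramp2. Without blood marker cells, osteolineage-like Adm was at -1.31 and Ramp2 at -0.39. Thinning gave -8.60 for Calcrl and -2.45 for Ramp2 between populations, 4.82 for arterial-like Ramp3, 3.48 for osteolineage-like Calcrl and 1.98 for Ramp2 within the LepR_tdT library. Thinned shares of cells were 3.12% (stromal-like, Adm), 8.05% (stromal-like, Ramp2), 5.36% (osteolineage-like, Ramp1), and for sinusoidal-like and arterial-like cells 12.3% and 11.3% (Calcrl), 34.4% and 54.2% (Ramp2), 1.09% and 25.5% (Ramp3), 4.32% and 5.66% (Calcrl with Ramp2) and 0.0882% and 2.36% (Calcrl with Ramp3). Thinned cells hold fewer UMIs by construction. The cause of the other changes was not tested. The marker gate has no value for the 2 sinusoidal-like clusters, and subtraction and thinning have none where under 1 UMI was left. Dropping the called doublets, the highest doublet scores or the shared barcodes moved no ratio out of its interval. Dropping the 20-UMI minimum moved the called genes by less than 1.5 times, for example from 285 to 370 between the sinusoidal-like clusters. Inside their intervals but past 2-fold were Adm between populations (1.10) and osteolineage-like Ramp2 (-1.02) with free RNA subtracted, and the latter when thinned (-1.03), and under it arterial-like Adm when thinned (-0.97), arterial-like Ramp2 at resolution 1.0 (0.98) and osteolineage-like Calcrl, not called, at resolution 1.0 (-0.11). Each group had 1 library, so spread between animals is unknown, and genes at a few UMIs set the precision of Ramp3 and Ramp1 ratios.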
